A study of Drosophila melanogaster with 3 samples.

Results

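Combgap had 236 peak summits within 500 bp of an annotated noncoding RNA start and away from every protein-coding start. They were 2.98% of the 7913 peaks that passed the authors' reproducibility threshold. A peak was counted here when its summit lay within 500 bp of the start of a gene of the noncoding RNA biotype, over 500 bp from every protein-coding start, and outside coding exons and 3' UTRs. Of the 410 summits within 500 bp of a noncoding RNA start, 167 lay within 500 bp of a protein-coding start as well, and 7 of the rest fell in a coding exon or a 3' UTR. The 236 summits lay in 189 merged regions of 6030, and 188 different noncoding RNA genes were nearest to them. The comparison groups were 3301 summits within 500 bp of a protein-coding start and 4164 distal summits, over 500 bp from every annotated start and outside coding exons and 3' UTRs.

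The peaks came from chromatin immunoprecipitation and sequencing (ChIP-seq) of whole Drosophila melanogaster embryos, male and female together, collected from 0 to 24 h. All samples were of the cg-GFP line, a transgenic stock that expresses Combgap with green fluorescent protein at its C-terminal end, and an antibody against GFP recovered the chromatin after sonication to 200 to 800 bp. The 3 samples were biological replicates of 1 group, called against 1 shared control alignment, and no other genotype, stage or treatment was compared. Each replicate list held 30000 peaks, the same number in all 3, and read depth is unknown. Values average over every embryonic tissue and stage, so binding in few nuclei and weaker binding in many cannot be told apart.

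Long noncoding RNAs are transcripts without a long open reading frame, and antisense RNAs are those that overlap a protein-coding gene on its other strand. In flies, several noncoding genes lie inside the regulatory DNA of developmental loci, and microRNA hairpins are processed from longer primary transcripts. Combgap is a zinc-finger protein that binds runs of GT repeats and is known as one of the factors that bring Polycomb group proteins, which keep developmental genes silent, to DNA. The label of a start held for long noncoding and antisense RNAs only as far as their annotation goes, and not for microRNAs, whose annotated first base is the end of a processed hairpin. Of the 236 summits, 197 were nearest to a long noncoding RNA, 23 to an antisense RNA, 15 to a microRNA hairpin and 1 to another kind, a stable intronic sequence RNA. These classes, here and below, follow the gene symbol in the annotation and not a measured overlap. Some genes named as long noncoding, such as CR44417, had their summit inside a protein-coding gene on the opposite strand.

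The 30-base stretches below hold the GT run nearest to the summit of the highest peaks, and 1 high peak without such a run. They were read from the plus strand of the release 6 assembly (dm6), and capitals mark unbroken matches to GTGTGT or to ACACAC, its other strand.
CR45297 at chr2L:4811783-4811812: gtgcctgtgcttGTGTGTtccgtatctgtg
CR45899 at chr3R:7000951-7000980: ctcagagaccgcACACACACaagcgcggca
CR46454 at chr2L:11447756-11447785: attcACACACACACACACagcgacagcgca
CR42719 at chr3L:616845-616874: tgtgggggcaGTGTGTGTgagagtgagtag
CR45559 at chr3R:6893312-6893341: gcgaggcgacaaGTGTGTgcgtagagtgcg
CR44933 at chr3R:7037465-7037494: acccacccACACACACACACaaatctgagt
CR45540 at chrX:9582016-9582045: atagaaatacgtACACACACACACACACat
CR43334 at chr3L:628245-628274: aaactcacacctacaggcgatgccggcaga
The CR43334 stretch is centred on its summit and holds no run of 3 GT repeats, and none lay within 100 bp of that summit. The run at CR44933 and that at CR45540 covered the summit base itself.

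MicroRNA hairpins near a summit are represented by the mir-2c, mir-13a and mir-13b-1 cluster of chromosome arm 3R, which had the highest of the hairpin peaks whose sequence is given here. The mature 3' arm sequences, on the minus strand of dm6 and written in DNA letters, carry their seed (bases 2 to 8) in capitals.
miR-2c-3p at chr3R:15417761-15417783: tATCACAGccagctttgatgggc
miR-13a-3p at chr3R:15417548-15417569: tATCACAGccattttgatgagt
miR-13b-1-3p at chr3R:15417412-15417433: tATCACAGccattttgacgagt
All 3 shared the seed ATCACAG, the mark of a family known to repress pro-apoptotic genes. Both peaks lay upstream of the mir-2c hairpin, by 122 and 322 bp, in an exon of a longer noncoding transcript, and the stretch with the run nearest to the higher-ranked one follows.
mir-2c at chr3R:15417883-15417912: ACACACACACACACACACagctgcaaagga

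The highest of these peaks were among the strongest Combgap sites in the genome. The peak at CR45297 ranked 11 of 7913 by the authors' peak signal, and its rank in replicates 1, 2 and 3 was 12, 8 and 11. Its summit lay 154 bp downstream of the CR45297 start, in a noncoding exon, and 1218 bp upstream of the start of CG15629. The peak at CR45267 ranked 12, with replicate ranks of 9, 12 and 13, and lay 5254 bp from the nearest protein-coding start, that of CG14762. These ranks differed by no more than 4 places between replicates for either peak.

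The peak at CR43334 ranked 32, with replicate ranks of 36, 34 and 25, and its summit lay in intergenic DNA. It was 2843 bp wide, against a median of 684 bp for all 236. The peak at CR45899 ranked 61, with replicate ranks of 53, 67 and 57, and its summit lay 1722 bp upstream of Antp, the homeotic gene of the thorax. The peak at CR46454 ranked 109, with replicate ranks of 108, 120 and 114, and lay 2175 bp upstream of salm, which encodes a zinc-finger regulator of wing and tracheal patterning. In all 3 replicates these peaks kept the order CR43334, CR45899, CR46454.

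Among the next 10, the summit at CR44417 (rank 113) lay inside Mapmodulin on the strand opposite to it, and that at CR42719 (rank 137) in intergenic DNA 10298 bp from Reg-2. For the summit at CR45559 (rank 163), the nearest protein-coding start was that of ftz, a pair-rule gene, at 29018 bp. The peak at CR44339 ranked 169 and lay 4081 bp upstream of Psc, a core subunit of Polycomb repressive complex 1. Its replicate ranks of 237, 143 and 119 were less even than those of the peaks above it.

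The summit at CR45793 (rank 230) lay in Hph, the gene of the hypoxia-sensing prolyl hydroxylase, and that at CR44933 (rank 357) 14858 bp upstream of Sodh1. The summit at CR45540 (rank 404) was the highest on the X chromosome and lay 2041 bp from LPCAT. The summit at CR43724 (rank 437) lay 1740 bp upstream of Optix, a homeobox gene of eye development. The summit at CR30055 (rank 462) lay in Sin3A, the scaffold of a histone deacetylase complex, and that at CR44340 (rank 523) in a 5' UTR, inside both Pfrx and CG14200. Nearness is given here by distance to protein-coding starts and not to gene bodies, and no measurement ties a peak to the gene it stands by.

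**Figure D1:**
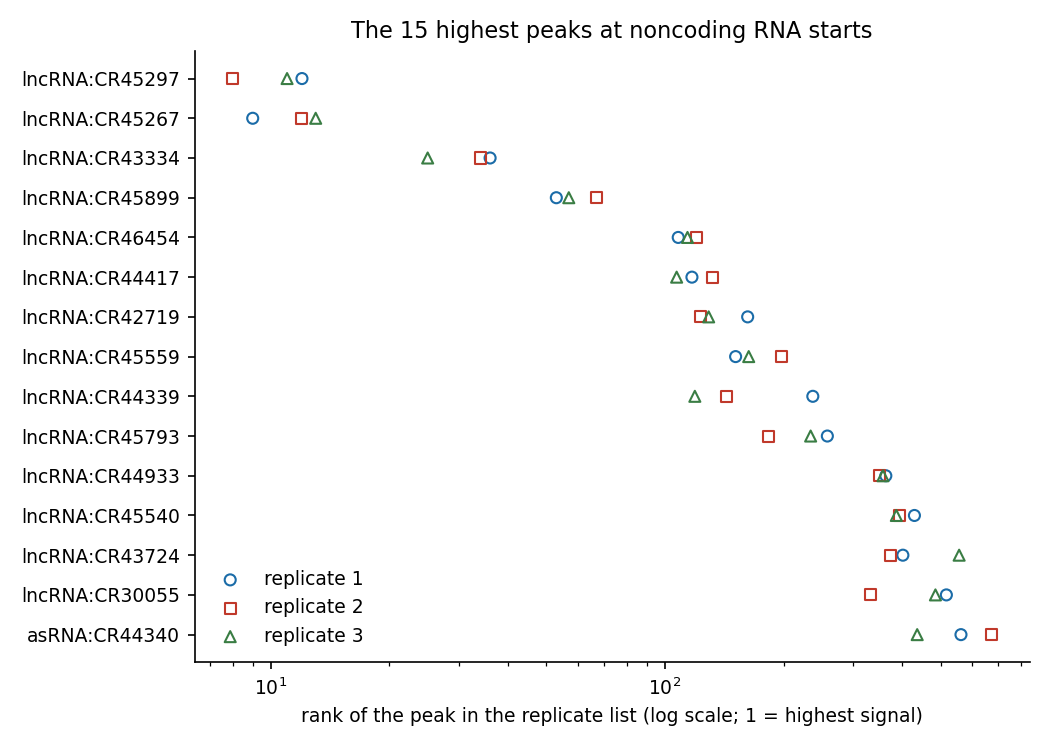
Rank of the 15 highest peaks at noncoding RNA starts in each of the 3 replicate lists, on a log axis where 1 is the highest signal; each symbol is 1 replicate. The peaks at CR45297 and CR45267 stay between ranks 8 and 13, and the replicates of CR44339 spread from 119 to 237.

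Below these the peaks ran through the whole thresholded list. Ranks of the 236 went from 11 to 7866 with a median of 3545.5, and 99 stood below the middle of the list. Of them, 4 were among the 100 highest, 14 among the 500 highest and 28 among the 1000 highest. The last count is 11.9%, beside 12.6 percent of all thresholded peaks, so it is near the background. In the replicate lists the mean share among the 500 highest was 5.79%, below that of all thresholded peaks by 0.599 points. Nothing is read from the 4 among the 100 highest. The median SD of a peak's rank over its 3 replicates was 323 places. All 236 overlapped a peak of every replicate list by at least 1 bp, beside 99.8 percent of all thresholded peaks.

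By signal, peaks at noncoding RNA starts stood between peaks at protein-coding starts and distal peaks in each replicate. Their median rank was 3673.5, 3620 and 3664.5 in replicates 1, 2 and 3 (mean 3653 ± 28.6, SD, n = 3). Peaks at protein-coding starts had median ranks of 2997, 3174 and 3010 (3060 ± 98.7, SD, n = 3), and distal peaks 4690.5, 4758 and 4841.5 (4763 ± 75.6, SD, n = 3). The replicate medians of the 3 groups did not overlap.

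The median signal of peaks at noncoding RNA starts was 0.777, 0.849 and 0.796 of that at protein-coding starts (mean 0.807 ± 0.0376, SD, n = 3). It was 1.36, 1.38 and 1.43 times that of distal peaks (mean 1.39 ± 0.0347, SD, n = 3). Both differences went one way in 3 of 3 replicates. The two-sided exact sign-flip test gave p = 0.25 for each, the smallest that 3 replicates allow. After Benjamini-Hochberg adjustment over a set of 13 such tests, the sign-flip p was 0.271 for each. The share among the 1000 highest peaks of a replicate was 12.3% ± 0.847 for noncoding RNA starts, against 12.6% ± 0.122 for all thresholded peaks (SD, n = 3; two-sided exact sign-flip p = 0.75). That share was 19.0% ± 0.454 for protein-coding starts and 7.95% ± 0.181 for distal peaks (SD, n = 3).

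**Figure D2:**
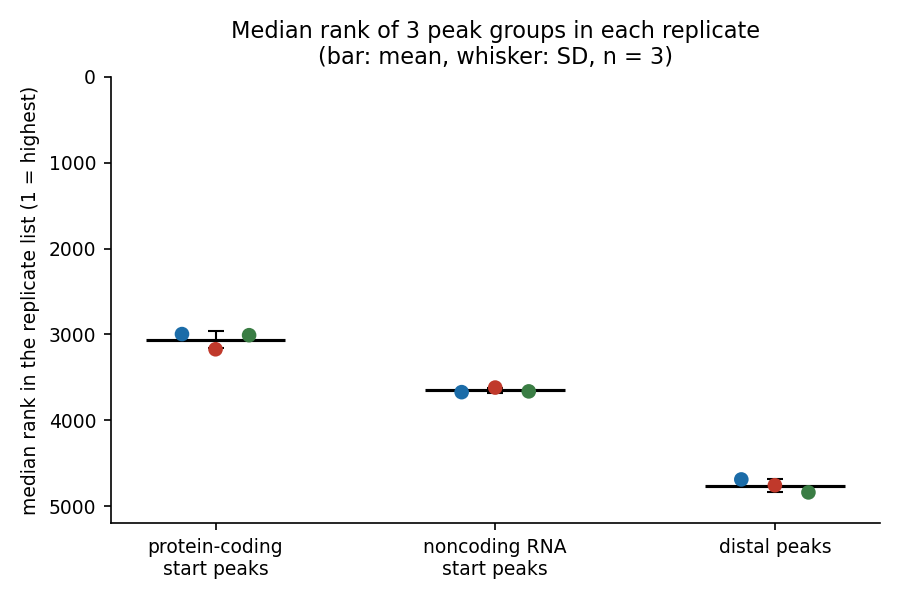
Median rank of peaks at protein-coding starts, at noncoding RNA starts and far from both, in each replicate list (vertical axis inverted, 1 is highest); points are replicates, bars the mean and whiskers the SD of n = 3. Noncoding RNA starts sit at 3620 to 3673.5, between 2997 to 3174 and 4690.5 to 4841.5.

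Summits were spread widely around the noncoding RNA starts. Of the 236, 121 lay upstream (51.3%), 114 downstream and 1 on the start base. Within 100 bp of the start lay 51 (21.6%) and within 250 bp 132 (55.9%), leaving 104 farther out. At protein-coding starts 42.4% were upstream, 28.4% within 100 bp and 69.6% within 250 bp, and the median distance was 174 bp, against 216 bp at noncoding RNA starts. A further 145 summits met the other criteria between 500 and 1000 bp from a noncoding RNA start.

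When the same rule was applied to as many of the highest peaks of each replicate list, 240, 249 and 240 peaks qualified (243 ± 5.20, SD, n = 3). The share within 250 bp was 59.0% ± 1.09 there, against 69.2% ± 0.990 at protein-coding starts (SD, n = 3). Distance is what chose the peaks, by a different rule in each group, so this difference is a description. A sign-flip test of it was left out of the set of 13 adjusted together, and nothing is read from it. The median signal within 250 bp was 1.22, 1.43 and 1.23 times that of the peaks farther out (mean 1.30 ± 0.117, SD, n = 3; exact p = 0.25).

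**Figure D3:**
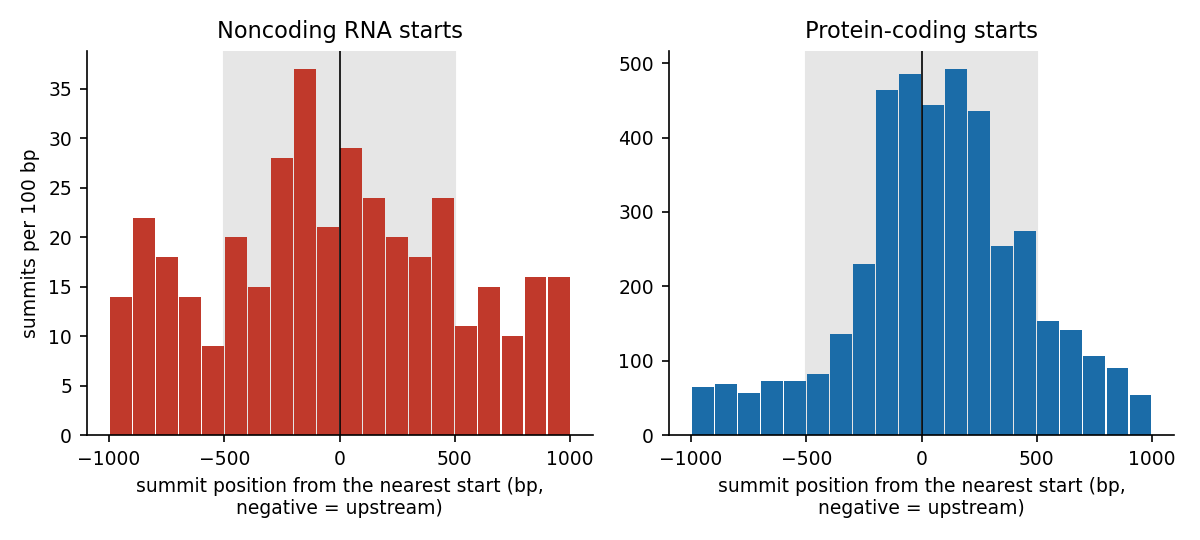
Number of thresholded summits per 100 bp by distance from the nearest noncoding RNA start (left) or protein-coding start (right), negative values upstream. Grey marks the 500 bp on either side. The left panel holds only summits over 500 bp from protein-coding starts and outside coding exons and 3' UTRs, so the panels were not chosen alike. The noncoding profile reaches 37 summits at 101 to 200 bp upstream and falls less steeply than the protein-coding one.

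The edges of the rule were filled on both sides. The farthest summit taken in lay 500 bp from CR44545 (rank 7023), and the nearest one left out 504 bp from CR45941 (rank 3081), by fz2. On the protein-coding side, the summit at CR44340 stood 512 bp from the start of CG14200, and one at CR43466 was left out at 491 bp from NKAIN (rank 1257).

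Most noncoding RNA genes had no Combgap peak at their start. Of 2780 such genes, 197 (7.09%) had a peak counted here and 324 (11.7%) any thresholded summit within 500 bp, beside 18.3 percent of protein-coding genes. By class, 158 of 1944 long noncoding RNAs (8.13%), 22 of 503 antisense RNAs (4.37%) and 16 of 260 microRNA hairpins (6.15%) had a peak counted here. With every thresholded summit the antisense share was 13.7%, above the 11.6% of long noncoding RNAs, and the rule leaves out those within 500 bp of a protein-coding start. Among genes with a start over 1000 bp from any start of the other kind, 168 of 1782 noncoding (9.43%) and 2394 of 13263 protein-coding genes (18.1%) had a summit within 500 bp of it. The noncoding starts in that count also lay outside coding exons and 3' UTRs, a filter not applied to the protein-coding starts. Any start of a gene could count, so genes with several starts had more chances. The number of starts per gene was not matched between the classes.

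The peaks stood outside protein-coding genes more often than the list as a whole. Inside such a gene lay 85 (36.0%), beside 77.3 percent of all thresholded peaks and 74.6% of distal ones. The places available differed in the same way. Of 1874 noncoding RNA starts over 1000 bp from protein-coding starts and outside coding exons and 3' UTRs, 567 (30.3%) lay inside a protein-coding gene. The rule for the peaks asked for 500 bp only, so the places and the peaks were not chosen quite alike. Of the 85, 64 lay in a host on the strand opposite to the noncoding RNA and 21 in one on the same strand. By annotation 121 summits fell in a noncoding exon, 63 in intergenic DNA, 43 in an intron of a protein-coding gene, 6 in an intron of a noncoding gene and 3 in a 5' UTR, classes that the rule partly fixes.

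Distance to the nearest protein-coding start ran from 512 to 50005 bp with a median of 3608.5 bp. It was over 5000 bp for 90 summits, over 10000 bp for 38 and over 20000 bp for 10. The median signal of peaks inside protein-coding genes was 0.924, 0.803 and 0.819 of that outside (mean 0.849 ± 0.0659, SD, n = 3; two-sided exact sign-flip p = 0.25), lower in 3 of 3 replicates.

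The X chromosome held few of these peaks. It carried 22 of 236 (9.32%), beside 21.5 percent of all thresholded peaks, and 374 of the 2780 noncoding RNA genes (13.5%). Arm 3R carried 71 (30.1%), 3L 54, 2L 46 and 2R 43, and chromosome 4, with 26 noncoding RNA genes, had 0. In the replicate lists the X share was 10.4%, 10.8% and 10.4% (mean 10.6% ± 0.246, SD, n = 3), against 21.0% ± 0.172 at protein-coding starts and 22.0% ± 0.220 for distal peaks. The X share was lower in 3 of 3 replicates against either group (two-sided exact sign-flip p = 0.25; adjusted 0.271).

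Counted per gene, the X and the autosomes differed less. Of noncoding RNA genes with a start over 1000 bp from protein-coding starts, 14 of 219 on the X had a peak (6.39%, exact 95% interval 3.54 to 10.5) and 154 of 1563 on autosomes (9.85%, 8.42 to 11.4). These intervals overlap and cover counting error only, which the SD over replicate lists does not measure. They treat genes as independent, though neighbouring genes can share a peak, so they can be too narrow. Over replicates the X share minus the autosome share was -2.99 ± 0.413 percentage points for these noncoding RNA genes (SD, n = 3). It was 5.80 ± 0.179 for protein-coding genes (SD, n = 3), of which 510 of 2196 on the X and 2041 of 11749 on autosomes had a peak. Protein-coding genes were counted with all their starts. The noncoding starts were limited by distance and to places outside coding exons and 3' UTRs, so the classes were not chosen alike. The difference between both gene classes was -8.79 ± 0.384 percentage points and held its sign in 3 of 3 replicates (two-sided exact sign-flip p = 0.25; adjusted 0.271).

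**Figure D4:**
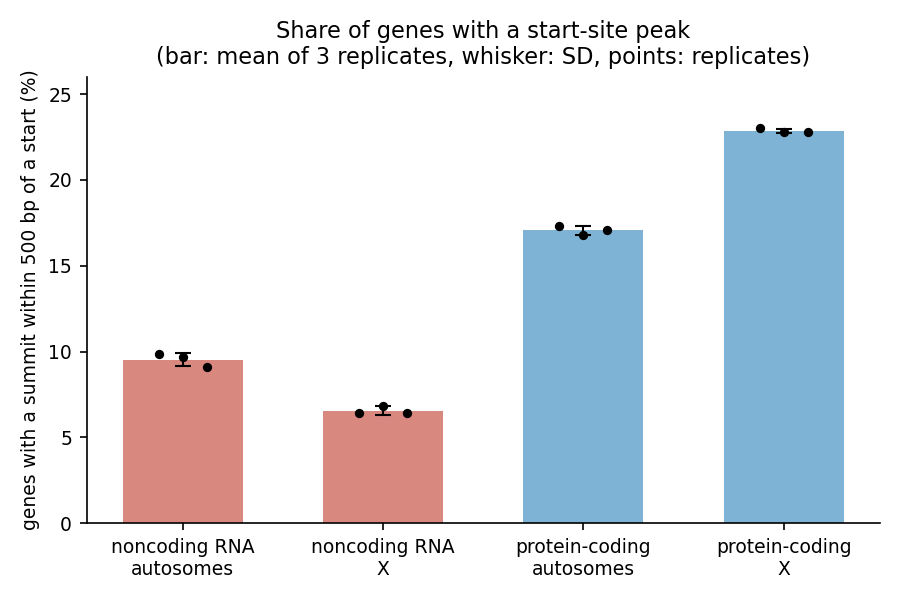
Percent of noncoding RNA genes and of protein-coding genes with a summit within 500 bp of a start, on autosomes and on X. Noncoding RNA starts lay over 1000 bp from protein-coding starts and outside coding exons and 3' UTRs, and protein-coding genes count all starts. Bars are means of 3 replicates, whiskers SD and points replicates. The X bar is the lower of the pair for noncoding RNA genes and the higher for protein-coding genes.

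GT runs were as frequent at these peaks as in the list as a whole. Of 236 windows reaching 100 bp to either side of the summit, 148 (62.7%) held GTGTGT on either strand, beside 63.3 percent of all thresholded peaks. The share was 58.2% at protein-coding starts, 67.1% at distal peaks and 12.4% of all 664860 genome windows of that length. The exact 95% interval of the 62.7%, 56.2 to 68.9, covers the shares of both other peak groups. It holds counting error only, which the SD over replicate lists of largely the same sites does not measure. It treats the 236 windows as independent, though they lie in 189 merged regions, so it can be too narrow. Windows on noncoding RNA starts with no pooled peak held it in 154 of 1333 cases (11.6%). The 1333 were only a part of the noncoding RNA genes without a pooled summit, as 757 of 2780 had one. Windows on the start of the nearest gene of the 236 held it in 55 of 188 (29.3%). In the replicate lists the share was 60.1% ± 1.97, above protein-coding starts (57.2% ± 0.520) and below distal peaks (65.6% ± 1.00) in 3 of 3 replicates (SD, n = 3; exact p = 0.25 each).

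The share of windows with long runs was below that at distal peaks and slightly above that at protein-coding starts, and neither difference was tested. Runs of at least 5 GT repeats stood in 62 windows (26.3%), against 29.5% of all peaks, 23.0% at protein-coding starts and 34.2% at distal peaks. Runs of at least 10 stood in 6 (2.54%), against 4.75%, 1.88% and 6.92% in the same order. The longest, of 15 repeats, lay by the mir-4946 hairpin. Peaks with GTGTGT had a median signal 1.63, 1.69 and 1.55 times that of the 88 without (mean 1.62 ± 0.0708, SD, n = 3; two-sided exact sign-flip p = 0.25). Their median ranks were 3057.5, 2999.5 and 3120, against 4498.5, 4663.5 and 4435.5, and the replicate medians with and without it did not overlap. CR45267, CR43334 and CR30055 were the 3 of the 15 highest peaks without GTGTGT.

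Elements of other factors were counted in the same windows, on both strands. The letters GAGAG, bound by the Trithorax-like protein, stood in 45.8% of the 236 windows, against 41.8% of all peaks and 21.5% of genome windows. TGAGTG, the Zeste element, stood in 19.9%, against 23.4% and 9.33%. A window can hold several elements, and neighbouring letters of a GT run can be part of the Zeste element.

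The letters GCCAT, the core of the Pho site, stood in 34.3%, against 29.9% of all peaks and 35.4% of genome windows. CAGGTA, the Zelda element, stood in 5.93%, against 4.61% of all peaks and 4.60% of genome windows. TATAAA stood in 18.2%, above the 15.3% of all peaks and below the 21.8% of genome windows.

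The initiator letters TCAGTT stood in 9.32% of the windows, against 10.6% of all peaks, 9.49% of distal peaks, 12.4% of genome windows and 18.2% of windows on noncoding RNA starts without a pooled peak. TATCGATA, the DNA replication-related element of many housekeeping promoters, stood in 1 window (0.424%), against 2.09% at protein-coding starts, 0.384% at distal peaks, 1.09% of all peaks and 0.564% of genome windows. A match of letters is not evidence of binding by the factor.

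**Figure D5:**
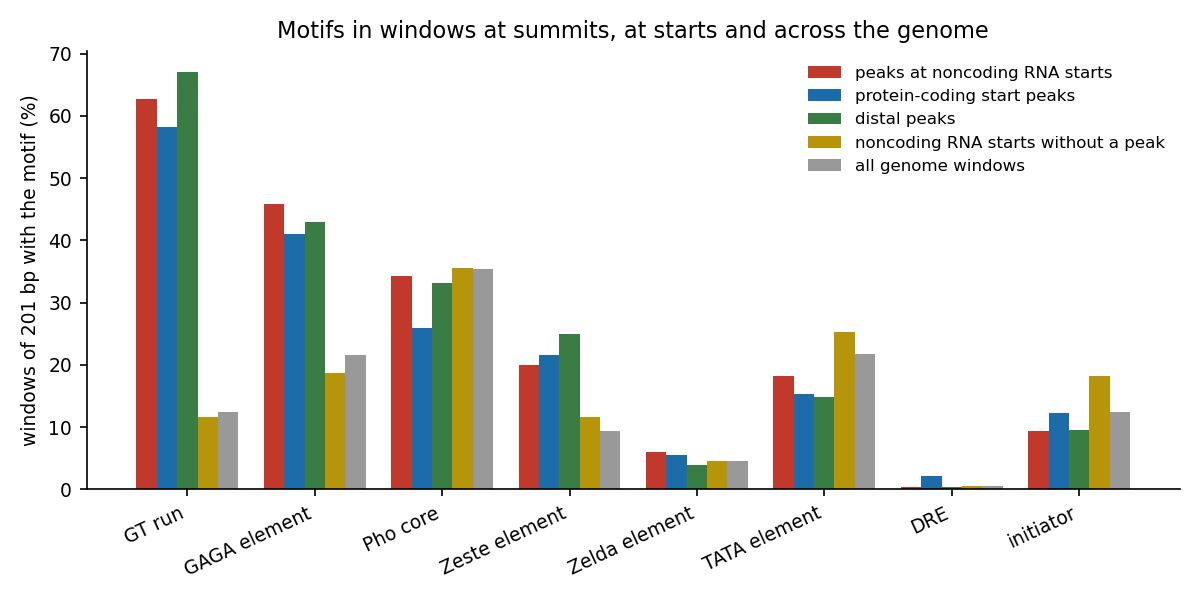
Percent of windows of equal length (100 bp to either side) with each of 8 elements at noncoding RNA start peaks, protein-coding start peaks, distal peaks, noncoding RNA starts without a pooled peak and all genome windows. The GT run stands at 62.7% in the first group and 11.6% at the 1333 starts counted without a peak, which are not all such starts.

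Noncoding genes with a name of their own lay lower in the list than those above. The highest was marge, at rank 743 with replicate ranks of 779, 678 and 792. CR46357, a stable intronic sequence RNA of Calr, had rank 1593. The hsr-omega gene (Hsromega), which makes a heat-inducible nuclear RNA, had 1 peak of rank 5591, 167 bp downstream of its start and without GTGTGT, with replicate ranks of 6247, 6715 and 5089. The primary transcript of let-7, miR-100 and miR-125 (let7C), which is switched on by ecdysone late in development, had 1 peak of rank 6133. That peak ranked 6157, 11069 and 5716, and replicate 2 stood far below the other replicates. The bsAS antisense RNA, inside bs, the gene of the fly serum response factor, had a peak of rank 3842.

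In the bithorax complex the noncoding genes iab4 (rank 2235), PS4 (rank 3362) and iab8 (ranks 3514 and 4392) had peaks. The iab4 summit lay 69 bp downstream of the annotated start and the PS4 summit, opposite Ubx, 43 bp.

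Of microRNA hairpins, mir-14, a regulator of cell death and fat metabolism, had a peak of rank 933, with replicate ranks of 985, 1006 and 918. The cluster of mir-2c had its peaks at rank 1121, with replicate ranks of 1252, 1070 and 1113, and at rank 1336, with 1394, 1756 and 1250. The hairpin mir-279, which restricts the formation of carbon dioxide-sensing neurons, had peaks at ranks 3024 and 6387, 427 and 227 bp upstream. Either mir-279 summit lay in an exon of a noncoding transcript, as did both mir-2c summits.

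The growth regulator mir-8 lay 377 bp from a summit of rank 3678 whose nearest noncoding start was that of CR43650. The other hairpins with a nearest summit were mir-9377 in Tis11 (1194), mir-9374 in Hr39 (1376), mir-4962 in Tlk (2088), mir-2493 (2344), mir-1000 (2701), mir-287 (2753), mir-4974 (3687), mir-9378 (4381), mir-4946 (5042) and mir-965 in kis (7739), with the rank in parentheses. These ranks lie on both sides of the median of 3545.5.

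Several loci carried more than 1 summit. There were 46 noncoding RNA genes with at least 2 summits and 2 with 3, CR43334 and CR43650. The other CR43334 summits, over 10000 bp from the highest one, ranked 2668 and 3257. The window from 600001 to 650000 on 3L held 5 of the 236 among 20 thresholded summits, at CR42719, CR43334 and CR43423, and the window from 16800001 to 16850000 on 2R held 5 among 9, at CR44465 and CR43650. Summits of 1 broad peak share their signal: 43 regions held at least 2 of the 236, and 19 of the 236 shared a region with a protein-coding start summit. Among all thresholded neighbours 151 pairs of summits stood exactly 200 bp apart and 127 closer, so counts of summits at a locus are not counts of separate sites.

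Developmental genes stood by these peaks about as often as by any Combgap peak. A gene of 10 developmental lists was nearest to or contained 29 of the 236 summits (12.3%), beside 11.3 percent of all thresholded peaks and 14.7% of distal ones. The Polycomb and Trithorax group list had 8 (3.39%, against 2.33% of all peaks), of which 1 was at Psc, 4 at the chromatin remodeller gene kis, 2 at osa, a subunit gene of the Brahma complex, and 1 at tara. The kis summits at CR44218 ranked 986 and 3481, and those in osa, at CR46036, ranked 1959 and 2076. The ecdysone list had 5 (2.12%, against 1.93%), at the nuclear receptor genes Hr3, Hr39, EcR and ftz-f1.

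The pair-rule and segment polarity list had 5 (2.12%, against 0.910% of all peaks), at ftz, ftz-f1, hry and ptc, the Hedgehog receptor gene. The ftz and hry starts were 29018 and 16646 bp from their summits. The homeotic list had 4 (1.69%, against 0.784%), at Antp, Ubx and abd-A, whose start was 20024 and 18810 bp from its summits. Appendage patterning genes had 3 (1.27%, against 1.88%), at salm, hth and mirr, whose start was 40302 bp away. Neural fate genes had 2 (0.847%, against 1.29%), at hth and pros. Notch pathway genes had 2 (0.847%, against 0.720%), both at E(spl)m3-HLH.

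The gap and head list had 1 (0.424%, against 0.417% of all peaks), at btd, the mesoderm list 1 (against 0.859%), at tup, and the axon guidance list 1 (against 0.910%), at Ten-m. The chemosensory list had 4 (1.69%, against 0.152% of all peaks), at 3 noncoding genes of 1 locus that were nearest to Or67d but 28796 to 50005 bp from it. The ribosomal protein list had 0, against 0.0632% of all peaks. All these genes are protein-coding neighbours or hosts, each list rests on at most 8 summits, and no list was tested.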

How the data were processed

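The deposited data were 5 peak lists on dm6: 1 for each of the 3 biological replicates, 1 for the pooled alignments and 1 thresholded by reproducibility, all against 1 control alignment, per the deposited text listings. Which aligner, caller and control were used is not given in the sources used here. Peak signal was deposited by the authors on a scale that differed between lists, so it was used for ranks and ratios within a list. The −log10 q values, deposited by the authors and read by column convention, were all 4.35 in the thresholded list and ranked nothing. The deposited lists give each summit as an offset in bp. Depth is unknown, so no precision from depth can be given, and the equal 30000 peaks per list look like a cap.

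Genes and 23136 distinct starts came from Ensembl release 115 (BDGP 6.54), and sequence from the release 6 assembly. The 481 mature microRNA records were left out of gene counts. A thresholded peak took its replicate rank from the overlapping replicate peak (at least 1 bp) whose summit was nearest. Motifs were sought within 100 bp of summits, and genome windows of the same length tiled the arms. Computing used Python 3.11.15, pandas 2.3.3, numpy 2.4.6, matplotlib 3.10.9 and scipy 1.17.1, and the scripts were tested on simulated data. Groups of peaks were compared by 1 value per replicate with a two-sided exact sign-flip test, which cannot go below 0.25 with 3 replicates.

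Genes named were those at the 15 highest peaks, those with a name beyond a CR number, those at the edges of the rule, those with at least 3 summits, the protein-coding genes beside these, and listed genes beside a summit. The members, the 12 gene lists and the 8 motifs were chosen with earlier results of these data known. Alternatives were other distances, windows, overlaps, biotypes and numbers of top peaks, the peaks above the middle of the list, 1 summit per region and each replicate left out. The alternative without microRNA records was chosen after seeing the data.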

Additional observations from a re-analysis of the deposited data

How the results depend on the processing

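Of 38 alternative values over 7 results, 27 met the criterion set for an unchanged result. Counts and the shares of genes, windows and recurring peaks were judged by size. Signal ratios and the share among the highest peaks were judged by direction alone, so their sizes could move. The count of 236 peaks became 133 within 250 bp (mature microRNA ends counted as starts), 381 within 1000 bp and 137 above the middle of the list. It was 194, 246, 243, 171 and 222 with 1000 bp kept from protein-coding starts, with all noncoding biotypes, without the exon exclusion, with 1 summit per region and without microRNA records. The share of genes, 7.09%, became 4.03%, 10.8% and 4.53% within 250 bp, within 1000 bp and above the middle. GTGTGT stood in 44.1% of windows reaching 50 bp (all peaks 47.0%) and 80.1% of those reaching 200 bp (all peaks 76.3%). With at least 0.5 of each peak overlapped, 87.3% were found in every replicate list (all peaks 89.3%). The share among the highest peaks turned from below to above that of all peaks for the 2000 highest (27.3%, by 2.47 points) and without replicate 3 (12.7%, by 0.112 points); the cause was not tested. Leaving out each replicate gave 11.9% to 12.7% for that share, 0.786 to 0.823 for the signal ratio to protein-coding starts and 1.37 to 1.40 for that to distal peaks. Other settings gave 0.697 to 0.925 and 1.36 to 1.62. No paired analysis was possible because all samples belong to 1 group, so no sample groups could be paired; groups of peaks were compared within each replicate.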

Other observations

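A list of 20 noncoding RNA genes was chosen for being well studied, and not by the rule for named genes. Of these, 8 (40.0%) had a thresholded Combgap summit within 500 bp of their start, beside 11.7% of all noncoding RNA genes. The choice itself can shape the share of 40.0%, so no enrichment is read from it, and none was tested. The 8 were iab4, iab8, PS4, Hsromega, let7C, mir-8, mir-14 and mir-279, described above, and the other 12 had none. The roX1 and roX2 genes, whose RNAs are part of the male dosage compensation complex, had 0 thresholded summits, and their best peaks in the pooled list ranked 15157 and 13831 of 30000. No pooled summit lay at bxd of the bithorax complex, at flam, the piRNA source locus of ovarian follicle cells, at yar, at the hairpin of bantam (mir-ban) or at mir-1, the muscle microRNA. The best pooled ranks were 10654 for mir-9a, 12126 for mir-124, 14003 for acal, 28654 for cherub and 29775 for mir-7. A missing thresholded peak is not proof of no binding, and depth is unknown.

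In the pooled list 703 of 30000 peaks met the same rule, and 757 of 2780 noncoding RNA genes had a pooled summit within 500 bp of a start.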
